A study of Mus musculus with 9 samples.

Results

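The 10 genes described here are the LIM-domain gene Lmcd1 and 9 genes of the contractile actin apparatus, Acta2, Actg2, Tagln, Cnn1, Cnn2, Tpm1, Tpm2, Myl9 and Cald1. They were chosen by symbol from the 23332 gene rows of the deposited tables. The choice was made with earlier results of these data in view, because the values of Lmcd1 with E2 had been seen to be lower than with DMSO. For this reason the values of all 10 genes in the comparisons that include E2 are a description with no test, and only the 4OHT versus DMSO comparison is tested for them. The cells were FVB MOE cells, which are mouse oviductal epithelial cells of the secretory kind grown as 1 clone, and their poly-A RNA was sequenced. The oviduct is the mouse counterpart of the fallopian tube. All cells were first starved of hormone for 48 h. They then received for 24 h either 0.1% DMSO (the solvent), 1 nM 17-betaestradiol (E2, the estrogen receptor ligand) or 100 nM 4-hydroxytamoxifen (4OHT, the active metabolite of tamoxifen and a selective estrogen receptor modulator), with 3 samples per condition numbered 1 to 3. The samples come from 1 cell line, and nothing in the labels says whether the numbers mark separate cultures, so a p-value measures the spread between these samples, which may be technical.

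Contraction of a cell rests on filaments of actin that are pulled by myosin. Acta2 and Actg2 encode the smooth muscle actins, Tagln and the calponins Cnn1 and Cnn2 encode proteins that bind and stabilise actin filaments, the tropomyosins Tpm1 and Tpm2 and caldesmon (Cald1) lie along the filament and regulate the access of myosin, and Myl9 encodes a regulatory light chain that switches myosin on when it is phosphorylated by the kinase Mylk. Many of these genes are textbook targets of serum response factor (SRF) with its myocardin-family cofactors. Epithelial cells in culture can also express part of this set, as stress fibers. Lmcd1 encodes a protein with LIM and cysteine-rich domains, known as a cofactor that restrains the GATA6 transcription factor and that activates the phosphatase calcineurin in heart muscle.

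The deposited values are FPKM, which count fragments relative to the length of the transcript and to the total mapped in that sample, so levels can be set side by side between genes. Within these cells the contractile genes fell into 3 ranges. Acta2 and Tpm1 were among the most abundant transcripts, with ranks of 53 and 59 by mean FPKM among the 23332 rows. Tagln, Cnn2 and Cald1 had ranks of 146, 217 and 614, and Tpm2 and Cnn1 followed with ranks of 1627 and 3998. Lmcd1 was a gene of moderate level, with a rank of 7750. Myl9 and Actg2 lay near the lower limit, with means over the 9 samples of 0.711 and 0.290 FPKM, and were not tested, because a row had to reach 1 FPKM in at least 3 samples. Hence 8 of the 10 genes were tested, among 11313 rows. None of the 10 was listed at exactly 0 in any sample.

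The smooth muscle actin and tropomyosin levels were not matched by the defining markers of smooth muscle. Myh11, the smooth muscle myosin heavy chain, lay at 0.241 to 0.305 FPKM, desmin (Des) at no more than 0.0491 and myocardin (Myocd) at no more than 0.00519, and Lmod1 at no more than 1.11, whereas Smtn, the remaining smooth muscle marker listed, lay at 222 to 248 FPKM in all conditions. Of the secretory epithelial markers, Pax8 lay at 105 to 150 FPKM and Krt8 at 334 to 623, whereas the epithelial adhesion genes Cdh1 and Epcam were at or below 0.422. The summed level of the 7 secretory markers was 1260 to 1391 FPKM with DMSO, 2154 to 2319 with E2 and 1341 to 1487 with 4OHT. Among them the mean of Krt7 was 310 FPKM with DMSO and 816 with E2 (adjusted p = 0.0321 by limma). That of Krt18 was 496 with DMSO and 710 with E2 (adjusted p = 0.213 by limma), and the adjusted p of Krt8 was 0.344. Krt7 was the 1 of 5 tested secretory markers called in this fit, which had no term for the replicate number. With such a term 4 of the 5 were called, all higher, beside 12.0% of all rows. The mean of Ovgp1 was 2.24 with DMSO and 1.65 with E2, the E2 sample being lower in all 3 numbers. The 5 fibroblast markers summed to 1.96 to 6.89 FPKM, with Thy1 at 0 in all samples, and the summed leukocyte markers, mainly Cd14, were 20.2 to 30.7 with DMSO and 27.8 to 40.5 with E2. The 4 ciliated markers found summed to 18.1 to 20.9 FPKM with DMSO, 13.8 to 18.1 with E2 and 18.4 to 20.8 with 4OHT. The ciliated markers did not move one way, since the mean of Foxj1 was 14.9 with DMSO and 11.2 with E2, and that of Rsph1 was 3.10 with DMSO and 3.68 with E2. Of the 3 endothelial markers, Pecam1 and Cdh5 did not exceed 0.0783 and 0.100 FPKM in any sample, and Kdr was 0.445 to 0.711 FPKM with DMSO and 1.01 to 1.28 with E2. The part of these differences in the results was not tested, and in bulk RNA fewer cells of a type and less RNA per cell cannot be told apart.

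Lmcd1 was lower in every E2 sample than in any sample of the other conditions. Its FPKM was 7.41, 8.50 and 8.73 with DMSO, 5.15, 5.06 and 5.51 with E2, and 8.26, 9.21 and 7.54 with 4OHT. The E2 samples did not overlap with the DMSO samples or with the 4OHT samples, while DMSO and 4OHT overlapped. The means were 8.21 ± 0.705 with DMSO, 5.24 ± 0.239 with E2 and 8.34 ± 0.840 with 4OHT (SD, n = 3), so that the E2 mean was 0.638 times the DMSO mean. Within the replicate numbers the log2 ratio of E2 to DMSO was −0.52, −0.75 and −0.66. The fitted change of log2(FPKM + 1) was −0.56 with a standard error of 0.084. In that direction, 6.11% of the 11122 rows compared by sample also had E2 samples entirely below the DMSO samples, which is given as background, since this contrast chose the gene. The share of rows with E2 samples entirely below the 4OHT samples was not counted.

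Lmcd1 (GRCm38, chr6:112273758-112330425, + strand) is a protein-coding gene with 1 annotated transcript in GENCODE. The 250 bases before its start are shown because they hold a CArG box, the binding motif of SRF. The motif was searched on both strands in the RefSeq windows of GRCm38.p6 that run from 250 bases before to 50 after each gene's start, and it was found in 1.63% of 32851 windows. Only the exact form, CC and GG around a run of A or T, was counted. A box with other letters, or one outside the window, would be missed. Of the 10 genes, 8 had a window in that table, with Actg2 and Tagln not matched, and the box stood in the windows of Lmcd1, Cnn2 and Myl9. Capitals mark the box in the 250 bases of Lmcd1 and in 60 bases around it in the other 2 genes, all 5′ to 3′ on the + strand.
Lmcd1, chr6:112273508-112273757: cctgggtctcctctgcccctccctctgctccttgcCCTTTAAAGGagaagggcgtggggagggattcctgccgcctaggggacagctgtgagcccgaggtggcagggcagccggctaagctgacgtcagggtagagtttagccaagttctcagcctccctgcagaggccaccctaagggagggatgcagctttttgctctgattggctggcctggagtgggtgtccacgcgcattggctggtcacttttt
Cnn2, chr10:79988519-79988578: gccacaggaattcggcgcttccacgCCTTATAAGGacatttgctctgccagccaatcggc
Myl9, chr2:156775278-156775337: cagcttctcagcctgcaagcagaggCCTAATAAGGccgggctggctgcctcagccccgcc
The box lay 215 bases before the start of Lmcd1, 56 before that of Cnn2 and 161 before that of Myl9, counted to its first base. The 3 genes did not share a pattern of levels, since Lmcd1 was lower with E2, Cnn2 was higher with E2 in each replicate number, and Myl9 did not pass the filter on low values. The MCAT motif (CATTCC on either strand), which TEAD factors bind, was found in the windows of Acta2, Tpm1 and Cald1 and in 14.7% of all windows. It is shown in capitals in 60 bases of Cald1, 153 bases before the start, because there the stretch lies outside annotated exons, whereas in Acta2 and Tpm1 the motif falls in an exon of the GENCODE annotation.
Cald1, chr6:34598326-34598385: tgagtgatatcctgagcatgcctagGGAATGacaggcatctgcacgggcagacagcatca
The palindromic estrogen response element (GGTCANNNTGACC), the binding motif of the estrogen receptor, was in none of the windows of these genes and in 0.0700% of all windows. A match or its absence in such a window is a description of the letters and shows nothing about the binding of a factor.

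**Figure D1:**
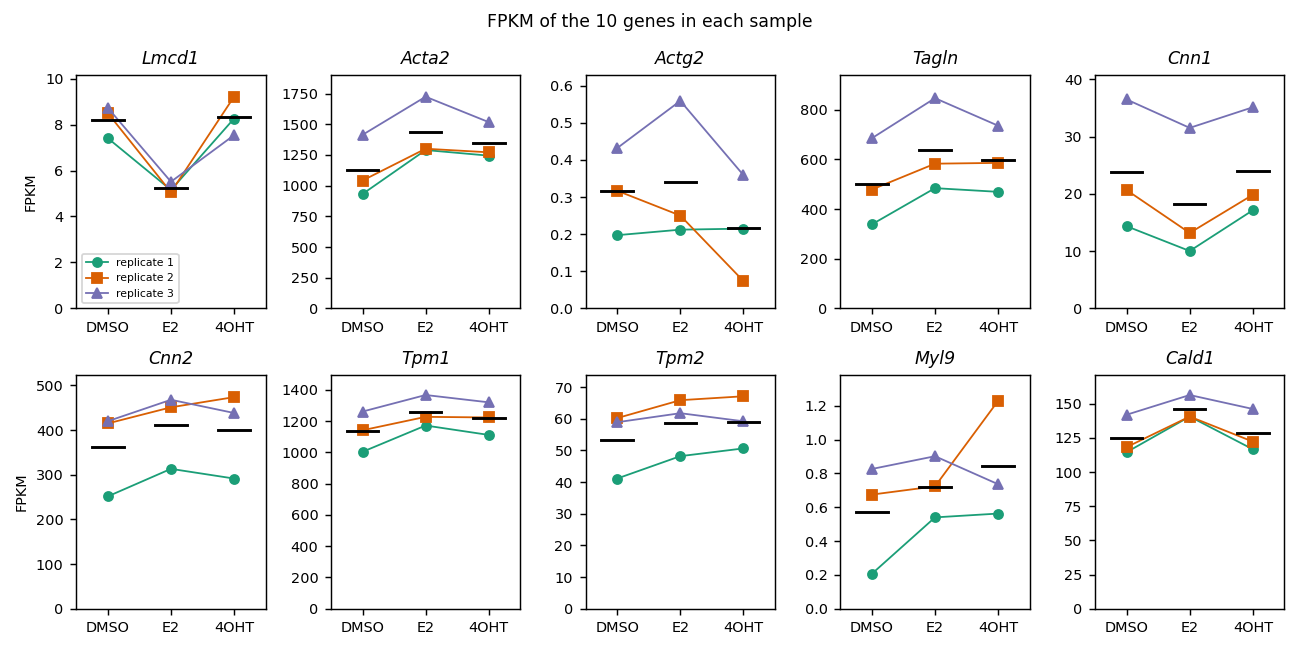
FPKM of the 10 genes (vertical axis, starting at 0) in the DMSO, E2 and 4OHT samples, with lines joining samples of the same replicate number and black bars at the condition means (n = 3). Lmcd1 is low in the 3 E2 samples, from 5.06 to 5.51. In every gene but Lmcd1 the means of the replicate numbers differ by a larger ratio than the condition means do. The ratios are 2.48 against 1.32 for Cnn1, 1.20 against 1.17 for Cald1 and 1.09 against 1.59 for Lmcd1.

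Acta2, the smooth muscle α-actin, was the most abundant of the 10 genes, and its values depended on the replicate number as well as on the condition. Its FPKM was 932, 1042 and 1414 with DMSO, 1290, 1301 and 1724 with E2, and 1245, 1272 and 1517 with 4OHT. The sample numbered 3 was the highest in each condition, and all 3 conditions overlapped. The means were 1129 ± 253, 1438 ± 248 and 1344 ± 150 (SD, n = 3). Compared within replicate numbers, each E2 sample and each 4OHT sample was above its DMSO sample, with log2 ratios of 0.47, 0.32 and 0.29 for E2 and of 0.42, 0.29 and 0.10 for 4OHT. Actg2, the smooth muscle γ-actin of the gut, was low throughout, at 0.197, 0.317 and 0.432 FPKM with DMSO, 0.212, 0.250 and 0.559 with E2, and 0.215, 0.0738 and 0.359 with 4OHT. The actins have similar coding sequences, so some reads of Acta2 and Actg2 may have been shared with the cytoplasmic actins Actb and Actg1. These 2 were 2321 FPKM or higher in every sample, whereas Actc1, a further actin, did not exceed 0.0421 FPKM. Sharing of reads was not tested, and the levels of Acta2 and Actg2 are uncertain to that extent.

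Tagln (transgelin, SM22α) followed Acta2. Its FPKM was 338, 478 and 685 with DMSO, 484, 582 and 846 with E2, and 469, 586 and 735 with 4OHT. The spread between replicate numbers exceeded the spread between conditions, with means of the 3 numbers that differed by 1.75-fold from lowest to highest against 1.27-fold for the conditions. The log2 ratios within numbers were 0.52, 0.28 and 0.30 for E2 and 0.47, 0.29 and 0.10 for 4OHT, all positive.

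Cnn1 (calponin 1) differed from the other filament-binding genes of this set in that it was lower with E2. Its FPKM was 14.4, 20.7 and 36.5 with DMSO, 10.0, 13.2 and 31.5 with E2, and 17.1, 19.8 and 35.1 with 4OHT. The 3 conditions overlapped widely, with means of 23.8 ± 11.4, 18.2 ± 11.6 and 24.0 ± 9.70 (SD, n = 3). The samples numbered 3 lay above all others, and the means of the replicate numbers differed by 2.48-fold, against 1.32-fold for the conditions. Within numbers the E2 sample was below the DMSO sample in all 3 cases, with log2 ratios of −0.52, −0.65 and −0.21, whereas 4OHT gave 0.26, −0.06 and −0.05. Its paralog Cnn2 (calponin 2), the form of non-muscle cells, had 252, 415 and 420 FPKM with DMSO, 313, 451 and 468 with E2, and 292, 474 and 438 with 4OHT. The sample numbered 1 was the lowest of each condition, and E2 and 4OHT lay above DMSO within every number, by 0.12 to 0.32 for E2 and 0.06 to 0.21 for 4OHT on the log2 scale.

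The tropomyosins differed little between the conditions. Tpm1 had 1003, 1141 and 1260 FPKM with DMSO, 1171, 1227 and 1366 with E2, and 1111, 1223 and 1319 with 4OHT, with means of 1135 ± 129, 1255 ± 100 and 1218 ± 104 (SD, n = 3). Tpm2 had 41.1, 60.2 and 58.9 FPKM with DMSO, 48.2, 65.9 and 61.7 with E2, and 50.6, 67.1 and 59.2 with 4OHT. All conditions overlapped for both genes. Cald1 (caldesmon) had 115, 118 and 142 FPKM with DMSO, 141, 141 and 156 with E2, and 117, 122 and 146 with 4OHT. Its E2 samples were above the DMSO and 4OHT samples of the same number in each case, by log2 ratios of 0.30, 0.25 and 0.14 over DMSO, and its 4OHT samples exceeded DMSO by only 0.03, 0.05 and 0.04. Myl9, the regulatory myosin light chain, had 0.207, 0.675 and 0.826 FPKM with DMSO, 0.540, 0.724 and 0.902 with E2, and 0.563, 1.23 and 0.736 with 4OHT. Only the 4OHT sample numbered 2 reached 1 FPKM.

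**Figure D2:**
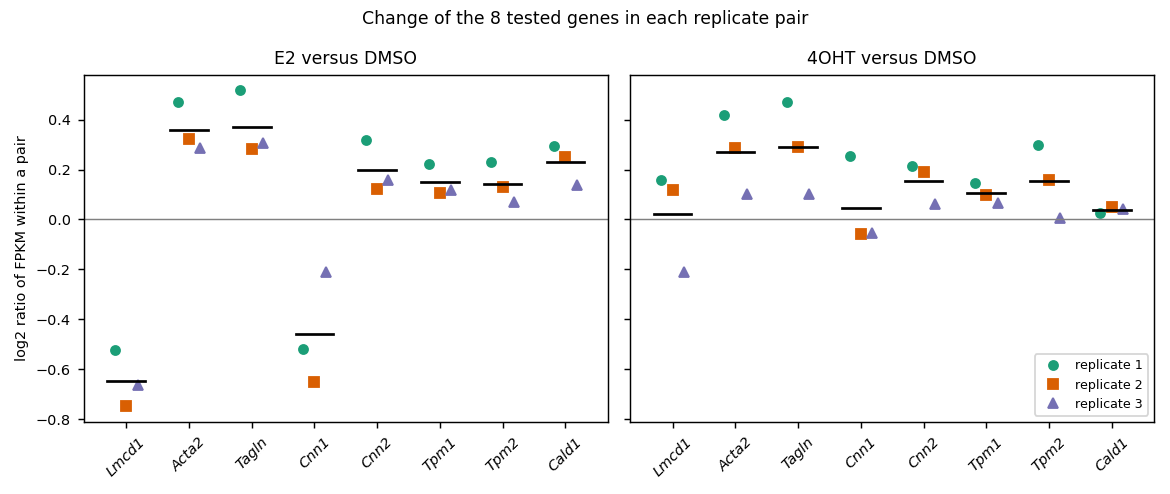
Log2 ratio of FPKM (nothing added) of the treated sample to the DMSO sample of the same replicate number for the 8 tested genes, E2 on the left and 4OHT on the right, with a bar at the mean of the 3 ratios. With E2, Lmcd1 and Cnn1 lie below 0 in all 3 numbers and the other 6 genes above 0, and with 4OHT Lmcd1 and Cnn1 lie on both sides of 0.

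Compared within the replicate numbers, 6 of the 8 tested genes (Acta2, Tagln, Cnn2, Tpm1, Tpm2 and Cald1) were higher with E2 than with DMSO in all 3 numbers, as were 28.3% of 11122 rows, and Lmcd1 and Cnn1 were lower in all 3, as were 24.5% of rows. The fitted E2 versus DMSO changes of log2(FPKM + 1) were 0.36 for Acta2, 0.37 for Tagln, 0.20 for Cnn2, 0.15 for Tpm1, 0.14 for Tpm2, 0.23 for Cald1 and −0.43 for Cnn1, and the median of the 8 genes was 0.17, beside a median of −0.00 for all rows tested. Their standard errors were 0.104 to 0.463 without a term for the replicate number and 0.0382 to 0.0985 with it, which is the replicate block. The block compares each treated sample with the samples of its own number. By an adjusted p under 0.05 (limma, Benjamini-Hochberg over all rows), Lmcd1 was the 1 gene of the 8 called in E2 versus DMSO without the block, and 0.601% of all rows were called. With the block, 7 of the 8 genes were called, 5 higher (Acta2, Tagln, Cnn2, Tpm1 and Cald1) and 2 lower (Lmcd1 and Cnn1), beside 12.0% of rows called higher and 6.47% called lower. These counts come from the contrast that the choice of genes used, and nothing is read from them.

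**Figure D3:**
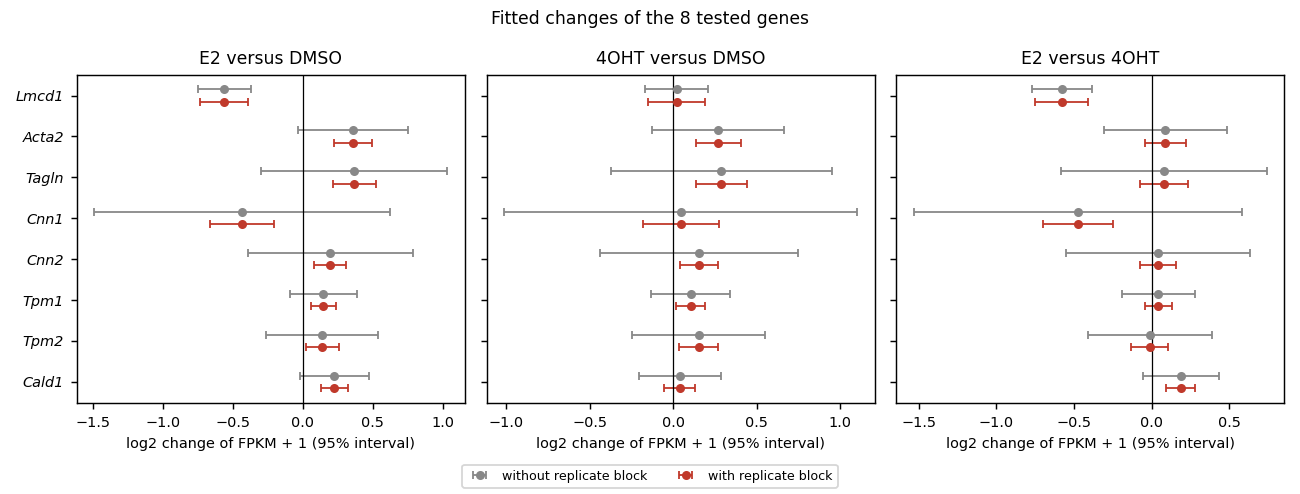
Fitted change of log2(FPKM + 1) with its 95% interval for the 8 tested genes in the 3 contrasts, without the replicate block (grey) and with it (red), all 9 samples in each fit. The point estimates are the same in both fits. The block narrows the intervals of Cnn1 and Tagln by the largest amounts on the log2 scale, from standard errors of 0.463 and 0.291 to 0.0985 and 0.0665. The standard error of Cnn2 goes from 0.259 to 0.0493.

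No member passed the test in 4OHT versus DMSO, which is the contrast that the choice did not use although it shares the DMSO samples with the other. The adjusted p was 1.00 for each of the 8 genes without the block, where 0% of rows were called (limma, 293 of 11313 rows at an unadjusted p under 0.05). With the block, Acta2 had a change of 0.27 ± 0.058 (SE, n = 3 per condition) and an adjusted p of 0.217, and Tagln a change of 0.29 ± 0.067 and an adjusted p of 0.240 (limma). The adjusted p of the other 6 genes was 0.323 or higher, and 0.0620% of rows were called. Lmcd1 changed by 0.02 with an interval from −0.15 to 0.19 in the fit with the block, which does not include a fall of the size given above for E2 versus DMSO. The interval of Cnn1 was −0.18 to 0.27, and that of Cald1 −0.05 to 0.13. All 8 fitted changes were positive, from 0.02 to 0.29, with a median of 0.13, beside a median of 0.02 over all rows. After upper-quartile scaling Lmcd1, Cnn1 and Cald1 were negative, so that 5 of the 8 were positive. Without the block the interval of Acta2 was −0.13 to 0.66 and that of Cnn1 was −1.01 to 1.10. Higher values with 4OHT than with DMSO in all 3 numbers were found for 6 of the 8 genes (Acta2, Tagln, Cnn2, Tpm1, Tpm2 and Cald1) and for 30.5% of rows. Lower values in all 3 were found for 0 of the 8 and for 15.7% of rows. The relative depth, read from the size of the smallest step in the FPKM with the DMSO sample numbered 2 set to 1, was 0.846 to 1 with DMSO, 0.711 to 0.910 with E2 and 0.690 to 0.782 with 4OHT, so that depth and 4OHT cannot be told apart.

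In E2 versus 4OHT, which shares the E2 samples with the contrast that the choice used, the values are again a description. Lmcd1 was lower with E2 than with 4OHT by log2 ratios of −0.68, −0.87 and −0.45 within the numbers, and its fitted change was −0.58 with a standard error of 0.084. Cnn1 was lower by −0.77, −0.59 and −0.16, with a fitted change of −0.47. Cald1 was higher by 0.27, 0.20 and 0.10, with a fitted change of 0.19. The fitted changes of the other 5 genes lay from −0.01 (Tpm2) to 0.09 (Acta2). In this contrast 1 of the 8 genes (Lmcd1) was called without the block, beside 0.327% of rows. With the block 3 of the 8 were called, Cald1 higher and Lmcd1 and Cnn1 lower, beside 10.6% of rows called higher and 10.9% lower. Nothing is read from these counts either.

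The partners of these genes in the cell were taken from 4 lists with 75 genes found in the tables, of which 64 were tested. The lists were chosen with earlier results of these data known. Their counts and p-values in the comparisons that include E2 are therefore a description and give no independent support. Without the block none of the 64 was called in any contrast (limma, with 13 at an unadjusted p under 0.05 in E2 versus DMSO, 0 in 4OHT versus DMSO and 11 in E2 versus 4OHT). With the block 63 genes could be fitted, and 29 were called in E2 versus DMSO, 26 higher and 3 lower, beside the 12.0% and 6.47% of all rows. With the block 0 were called in 4OHT versus DMSO, where 21 had an unadjusted p under 0.05, and 25 in E2 versus 4OHT, 21 higher and 4 lower, beside 10.6% of all rows called higher and 10.9% lower. Since the calls depend on the pairing by number, the adjusted p-values that follow are from limma with the block, and none of these genes passed without it.

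Among actin and actin-binding genes, 5 of 18 were called higher with E2 than with DMSO and 0 lower, beside 12.0% and 6.47% of all rows. The median change was 0.10 over the 18 beside −0.00 over all rows. Vinculin (Vcl), which links actin to cell adhesions, had 192, 212 and 236 FPKM with DMSO, 248, 302 and 302 with E2, and 193, 232 and 248 with 4OHT. It rose by 0.41 ± 0.041 (SE, n = 3 per condition; adjusted p = 0.000548), and its 4OHT samples overlapped with both other conditions. The cytoplasmic actin Actg1 rose by 0.25 (adjusted p = 0.00578), the non-muscle tropomyosin Tpm4 by 0.17 (adjusted p = 0.0199), the filament-elongating Vasp by 0.17 (adjusted p = 0.00786) and the cross-linker Actn1 by 0.15 (adjusted p = 0.0449). Against 4OHT, E2 samples were higher in Vcl, Flnc and Flna, the last 2 being filamin cross-linkers with changes of 0.32 and 0.25, and lower in Cnn3, the calponin paralog, by 0.15. Like Cnn1, Cnn3 was also lower with E2 than with DMSO in each replicate number, with a change of −0.07 and an adjusted p of 0.243. Flnc was listed at 0 in 2 samples, which were left out of its fit.

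Of 13 myosin genes and regulators, 3 were called higher with E2 than with DMSO and 1 lower, beside 12.0% and 6.47% of all rows. The median change was 0.09. Mylk, the kinase of Myl9, was the one called lower. Its FPKM was 3.32, 1.99 and 3.45 with DMSO, 2.07, 1.58 and 2.41 with E2, and 2.15, 1.27 and 2.50 with 4OHT, so that the conditions overlapped while each treated sample was below the DMSO sample of its number. The change was −0.36 ± 0.067 for E2 (SE, n = 3 per condition; adjusted p = 0.00878), and for 4OHT it was −0.40 with an adjusted p of 0.131. At this low level the added 1 FPKM makes both changes smaller. The study, which used Cuffdiff, listed Mylk among the genes significantly lower with 4OHT. Among those that rose were the essential light chain Myl6, by 0.21 (adjusted p = 0.0122), and the kinase Dapk3, by 0.17 (adjusted p = 0.0225). In E2 versus 4OHT the kinase Rock1 rose by 0.20 (adjusted p = 0.0294) and the phosphatase subunit Ppp1r12b by 0.23 (adjusted p = 0.0412), and the phosphatase inhibitor Ppp1r14b fell by 0.22 (adjusted p = 0.0161).

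Among 13 SRF cofactors and textbook SRF targets, 8 were called higher and 1 lower in E2 versus DMSO. This stands beside 12.0% and 6.47% of all rows, and the median change was 0.22. SRF itself had 20.7, 30.9 and 28.5 FPKM with DMSO and 23.1, 30.5 and 30.2 with E2, a change of 0.07 with an adjusted p of 0.277. Its cofactor Mkl1 was the gene called lower, by 0.18 (adjusted p = 0.0194). Mkl2, another cofactor of that family, was not called in E2 versus DMSO, with a change of 0.11 and an adjusted p of 0.236. It was higher with E2 than with 4OHT by 0.22 (adjusted p = 0.0402). Ctgf, a secreted matricellular protein, rose by 0.57 ± 0.061 (SE, n = 3 per condition; adjusted p = 0.000804), from 434, 939 and 1136 FPKM with DMSO to 733, 1299 and 1583 with E2, with overlapping groups. Egr1 rose by 0.32, Tgfb1i1 by 0.31, Ankrd1 by 0.26, the integrin Itga5 by 0.24 and Cyr61 by 0.22, with adjusted p-values of 0.00303 to 0.0275. In E2 versus 4OHT, 8 of the 13 were called, 7 higher and 1 lower, beside the 10.6% and 10.9% of all rows, among them Ctgf (0.30), Tgfb1i1 (0.24), Egr1 (0.24), Itga5 (0.23) and the LIM protein Fhl2 (0.17).

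Among 19 genes of the LIM-domain family and the known partners of Lmcd1, 10 were called higher and 1 lower in E2 versus DMSO. This stands beside 12.0% and 6.47% of all rows, and the median change was 0.23. Lmo7, an adhesion-associated LIM protein, had 3.96, 1.78 and 2.46 FPKM with DMSO, 8.08, 4.65 and 4.61 with E2, and 3.09, 2.08 and 2.38 with 4OHT. Every E2 sample was above every DMSO and 4OHT sample, and the change over DMSO was 0.86 ± 0.092 (SE, n = 3 per condition; adjusted p = 0.000724). The share of all rows separated upward in this way was not counted. Ppp3ca, the catalytic subunit of calcineurin, rose by 0.49 (adjusted p = 0.00121), Prickle1 by 0.47 (adjusted p = 0.000971), Pdlim4 by 0.45 (adjusted p = 0.00121), Csrp1 by 0.40 (adjusted p = 0.000724) and Csrp2 by 0.36 (adjusted p = 0.0153). In E2 versus 4OHT, 10 of the 19 were called, 9 higher and 1 lower, beside 10.6% and 10.9% of all rows. Among those called higher were Lmo7, Csrp2, Prickle1 and Ppp3ca. The calcineurin feedback inhibitor Rcan1 was higher with E2 than with 4OHT by 0.33 (adjusted p = 0.00624), and Pdlim2 was lower by 0.26 (adjusted p = 0.0225). Gata6, the transcription factor that Lmcd1 is known to restrain, was at 0 FPKM in all 9 samples, and Gata4 did not exceed 0.00959 FPKM. With each sample left out in turn and the block kept, the E2 versus DMSO calls of Actn1, Tpm4, Myl6, Dapk3, Cyr61 and Csrp2 were lost in at least 1 of the 9 fits, in each case among them the fits without DMSO 2, and those of Vcl, Actg1, Vasp, Mylk, Ctgf, Egr1, Tgfb1i1, Ankrd1, Itga5, Lmo7, Ppp3ca, Prickle1, Pdlim4 and Csrp1 passed in all 9. The call of Actn1 passed in 1 of the 9 fits, those of Dapk3, Tpm4 and Cyr61 in 4, that of Myl6 in 5 and that of Csrp2 in 6. The E2 versus DMSO call of Mkl1 was not examined in this way. Of the E2 versus 4OHT calls named for the listed genes, those of Vcl, Rcan1, Lmo7, Csrp2, Prickle1 and Ppp3ca passed in all 9 such fits. Each of the others was lost without at least one 4OHT sample, namely 4OHT 1 for Itga5 and Fhl2, 4OHT 2 for Tgfb1i1, 4OHT 1 or 4OHT 3 for Ctgf, 4OHT 2 or 4OHT 3 for Pdlim2, and both 4OHT 1 and 4OHT 2 in turn for Flnc, Flna, Cnn3, Rock1, Ppp1r12b, Ppp1r14b, Mkl2 and Egr1. The losses were not limited to 4OHT samples. Egr1, Pdlim2, Ppp1r14b and Flna were also lost without some E2 sample, and Cnn3, Rock1, Mkl2 and Ppp1r12b without some E2 and some DMSO sample.

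**Figure D4:**
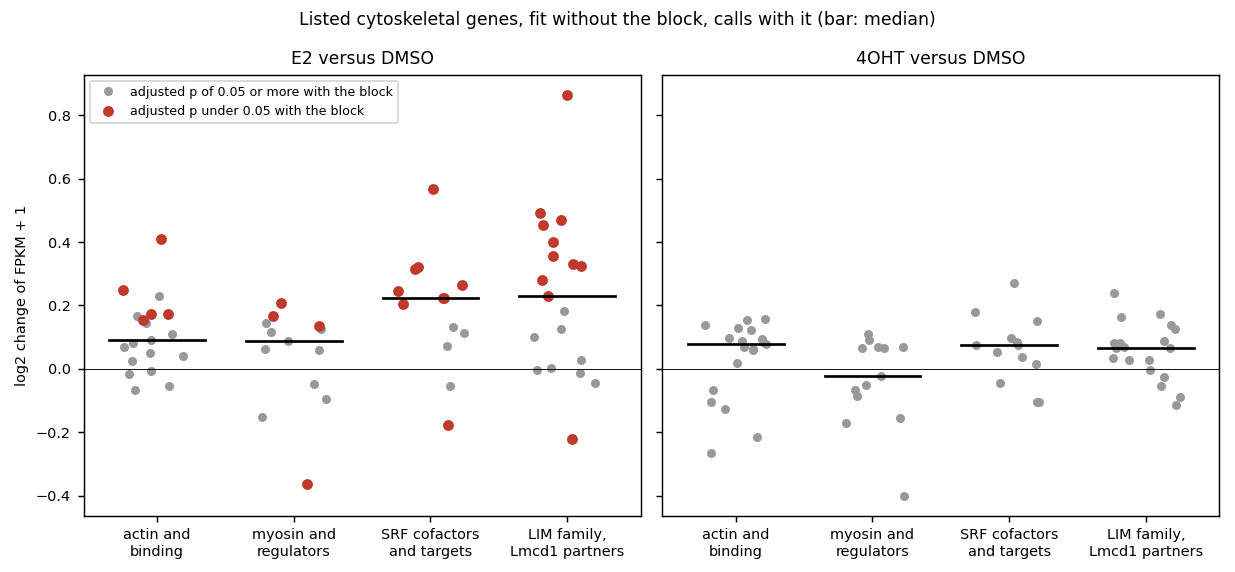
Change of log2(FPKM + 1) of each listed gene in the 4 lists (points, with red for an adjusted p under 0.05 in the fit with the replicate block) with E2 over DMSO on the left and 4OHT over DMSO on the right, with a bar at the list's median. The red points number 29 on the left and 0 on the right, and Lmo7 (0.86) is the highest point.

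The 5 rows whose course over the 9 samples was most like that of Lmcd1 did not include any of the other 9 genes described here. Likeness was the root mean square difference of log2(FPKM + 1), centred on its mean over the 9 samples, among 8519 rows with a mean FPKM of at least 5 and no exact 0. The median row differed from Lmcd1 by 0.292. Pdk4, a kinase that restrains pyruvate oxidation, was nearest, with a difference of 0.102, and had 10.0, 11.3 and 9.68 FPKM with DMSO, 6.55, 7.08 and 6.79 with E2, and 9.47, 10.2 and 9.28 with 4OHT. Tnnc2, the fast skeletal muscle troponin C, followed with 0.109, then the row 4930572J05Rik with 0.127, the DNA repair endonuclease Apex1 with 0.127 and Cpne2 with 0.131. Since likeness to Lmcd1 chose these rows, their low values with E2 follow from the choice. The other 7 tested genes of the contractile set differed from Lmcd1 by 0.334 (Tpm1) to 0.537 (Cnn1), which put them at ranks 6185 to 8233 of the 8519.

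**Figure D5:**
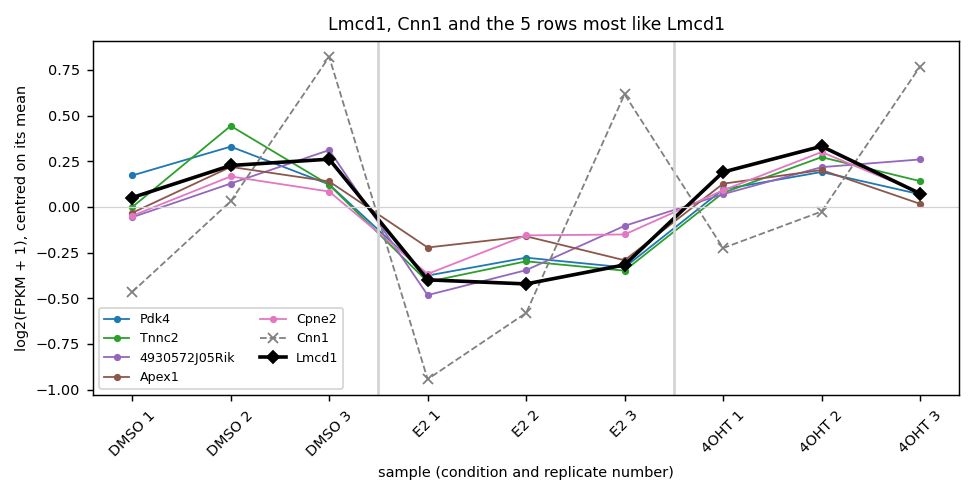
Log2(FPKM + 1) of Lmcd1 (black), the 5 rows most like it and Cnn1 (dashed) in each of the 9 samples, each centred on its own mean, with the samples on the horizontal axis by condition and replicate number. The 6 solid lines are low in the 3 E2 samples, whereas Cnn1 is highest in the samples numbered 3.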

How the data were processed

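RNA was measured by 50-base single-end directional sequencing of 9 samples, 3 per condition. The authors aligned the reads to mm10 with TopHat (version 2.0.8b) and estimated expression with Cufflinks and Cuffdiff (version 2.1.1) on a UCSC annotation, and the deposited values are FPKM per gene. Whether a further scaling between libraries entered them is not stated in the sources used here, and the FPKM carry no read counts, so depth is given here only as a relative value. The read totals that the study lists per sample were not used here. The members and the gene lists were chosen with earlier results of these data known.

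Here log2(FPKM + 1) of rows with at least 1 FPKM in at least 3 samples was fitted with limma 3.58.1 (R 4.3.3), with a variance trend, 1 coefficient per condition and Benjamini-Hochberg adjustment over 11313 rows at a threshold of 0.05. A change on this scale understates that of genes near 1 FPKM. Exact zeros (80 to 109 per sample) were set apart as missing in 266 rows whose nonzero FPKM had a median of 5 or more. FPKM sums were 522517 to 588640 per sample. The samples' labels carry replicate numbers without saying what they mark. Same-numbered samples deviated together from their condition means (correlations of 0.52 to 0.83 in the 9 pairs, over the 11094 tested rows with no exact 0). Over all 11313 tested rows with zeros taken as values the correlations were 0.061 to 0.29, with 3 of the 9 under 0.1. The first set of rows decided the pairing, because zeros are set apart in the fits. A fit that blocks on this number is given beside each count it moves. The fits were tested on simulated data. Named were all members, the listed genes past the threshold in either fit (up to 6 per list and contrast by size of change) with Mylk, and the 5 rows most like Lmcd1. Mkl1, Srf, Gata4, Gata6 and the marker genes were named outside this rule, after their values were seen. One listed gene that this rule names is not reported here. Alternatives were a pseudocount of 0.1, no filter, zeros as values, other scalings, the 6 samples compared and each sample left out. Added after seeing the data were the numbers 2 and 3 alone and leaving out each sample with the block. Promoter windows are from RefSeq (GRCm38.p6) and gene positions from GENCODE. Figures used matplotlib with Python.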

Additional observations from a re-analysis of the deposited data

How the results depend on the processing

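The results turned on the replicate block. In E2 versus DMSO 2088 rows passed with the block against 68 without it, 1702 with the block and zeros as values, 37 with no filter on low values, 14 in a fit on the 6 samples, 181 with the numbers 2 and 3 only and 1351 with those numbers and the block. The contractile genes passing were 7, 7, 0, 0, 0 and 3 in the same order against 1, and the listed genes 29 with the block, 27 with zeros as values, 3 with numbers 2 and 3 only and 17 with those and the block, against 0. In 4OHT versus DMSO 7 rows passed with the block, 7 with it on numbers 2 and 3 only and 0 with it and zeros as values, against 0. In E2 versus 4OHT 2427 rows passed with the block against 37 without it, 1840 with zeros as values, 9 with no filter, 18 with zeros as values and no block, 13 in 6 samples, 95 with numbers 2 and 3 only and 984 with those and the block. The contractile genes passing were 3, 3, 0, 0, 0 and 0 in the same order of the first 6 settings, against 1, and the listed genes 25 with the block, 20 with zeros as values and 8 with numbers 2 and 3 and the block, against 0. Leaving out each sample gave rows of 13 to 88 without the block and 931 to 1852 with it (E2 versus DMSO), 0 without the block and 0 to 11 with it (4OHT versus DMSO) and 0 to 56 without the block and 672 to 2356 with it (E2 versus 4OHT). For the contractile genes these counts were 0 to 1 without the block and 4 to 7 with it (E2 versus DMSO) and 0 to 1 without the block and 1 to 3 with it (E2 versus 4OHT), and for the listed genes 0 to 2 without the block and 20 to 28 with it and 0 to 1 without the block and 10 to 23 with it. Without the block Lmcd1 passed in E2 versus DMSO in 3 of 9 such fits (all but those without the samples DMSO 2, DMSO 3, E2 1, E2 2, E2 3 and 4OHT 1) and in E2 versus 4OHT in 1 of 9 (without DMSO 1). With the block Lmcd1, Acta2, Tagln and Cald1 passed in E2 versus DMSO in 9 of 9, Cnn1 in 5 (lost without DMSO 2, DMSO 3, E2 1 or E2 2), and Cnn2 and Tpm1 in 3 (lost without DMSO 1, DMSO 2, DMSO 3, E2 1, E2 3 or 4OHT 1). In E2 versus 4OHT with the block Lmcd1 passed in 9 of 9, Cald1 in 7 (lost without 4OHT 1 or 4OHT 2) and Cnn1 in 6 (lost without E2 2, 4OHT 1 or 4OHT 2). For these chosen genes, passing in a comparison that includes E2 is a description and not a test. Directions changed in 4OHT versus DMSO for Lmcd1 (−0.032 with upper-quartile scaling, −0.041 with numbers 2 and 3 only, with or without the block), Cnn1 (−0.011 and −0.055) and Cald1 (−0.018 with upper-quartile scaling), and in E2 versus 4OHT for Tpm2 (0.0058 with upper-quartile scaling, 0.017 with numbers 2 and 3). Leaving out single samples gave changes that crossed 0 for Lmcd1 −0.048 to 0.12 (4OHT versus DMSO), Acta2 −0.048 to 0.18 (E2 versus 4OHT), Tagln −0.14 to 0.26 (E2 versus 4OHT), Cnn1 −0.25 to 0.39 (4OHT versus DMSO), Cnn2 −0.046 to 0.38 (E2 versus DMSO), Cnn2 −0.088 to 0.37 (4OHT versus DMSO), Cnn2 −0.17 to 0.23 (E2 versus 4OHT), Tpm1 −0.021 to 0.10 (E2 versus 4OHT), Tpm2 −0.035 to 0.27 (E2 versus DMSO), Tpm2 −0.023 to 0.25 (4OHT versus DMSO), Tpm2 −0.12 to 0.12 (E2 versus 4OHT), Cald1 −0.057 to 0.13 (4OHT versus DMSO), Ctgf −0.060 to 0.62 (E2 versus 4OHT), Mylk −0.15 to 0.17 (E2 versus 4OHT), Cyr61 −0.047 to 0.44 (E2 versus DMSO), Tgfb1i1 −0.022 to 0.53 (E2 versus 4OHT), Pdlim2 −0.63 to 0.076 (E2 versus 4OHT). The causes were not tested. Depth per sample was used only relative to another sample. Myl9 and Actg2 were left out by the filter on low values, and with no filter their changes in 4OHT versus DMSO were 0.24 and −0.12 (limma, adjusted p of 1.00 for both). Counting error was not estimated.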
